A study of Gossypium barbadense with 4 samples.

Results

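Gibberellin signalling was followed through 3 probe sets of the Affymetrix Cotton Genome Array, a short-oligonucleotide microarray, out of 24029 probe sets that are not controls. They were chosen by their description in the study's list of similarity searches, taken where it held DELLA, GAI or gibberellin. DT468888 and DW235285, named here by the GenBank accession of the transcript the probes were designed on, are both described as DELLA protein GAI, and DR460630 is described as a gibberellin regulated protein. The list describes 1439 probe sets, all of which the study had called changed on these same arrays, so the presence of a member says nothing independent about its direction. Each member is the only probe set of its transcript cluster on the array.

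Signals were measured in anthers and in ovules of field-grown Gossypium barbadense on the day the flower opened (0 DPA). The genotypes were Pima S-1, a non-semigametic cultivar, and 57-4, the semigametic line found as a naturally occurring mutant of Pima S-1 and carried as a doubled haploid. In semigamy the sperm enters the egg but the 2 nuclei do not fuse, so that haploid and chimeric seedlings can arise. One array was hybridized for each tissue and genotype, 4 in all, with the RNA of the 3 field replicates combined beforehand, each replicate being 10 flowers. The semigametic genotype is thus represented by a single mutant line, and no replicate error exists for any value given here.

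Gibberellins are hormones of stem growth, flowering, stamen development and cotton fibre elongation. They bind the soluble receptor GID1, and the loaded receptor binds DELLA proteins, which are repressors of the response and belong to the GRAS family of plant transcriptional regulators. The DELLA protein is then marked with ubiquitin and degraded, and the repressed genes become active. Genes of the gibberellin regulated family, known in Arabidopsis as GASA genes, code for small cysteine-rich peptides, many of which change with the hormone.

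The 2 probe sets described as DELLA-GAI differed in their genotype ratios. DT468888 was higher in 57-4 in both tissues, by more than 3-fold. DW235285 was slightly lower in 57-4 in both, by less than the disagreement between paired probe sets given below. Whether DT468888 measures a DELLA gene was not tested. DR460630 was higher in 57-4 anthers and differed less in ovules. Differences of 2-fold or more were counted, meaning that the log2 ratio of the 57-4 signal over that of Pima S-1 was 1 or above, or -1 or below, once signals under 50 had been raised to 50. By this measure 2 of the 3 members were higher in anthers and 1 of the 3 in ovules, and 0 were lower in either tissue. Among all probe sets that reached 50 on either array of the tissue, the 57-4 signal was 2-fold or more higher for 1.59% and lower for 2.71% in anthers, and for 4.46% and 4.14% in ovules. The members had been called by the study on the same arrays, so nothing is read from the excess over this background. The copy of the ovule list used here runs from increases to decreases and stops before the strongest decreases, so gibberellin probe sets of that kind could be missing from all ovule counts and medians of described probe sets below.

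Several properties of the arrays move with the genotype. Signal at the 3' end over that at the 5' end, in 3 cotton control transcripts, ran from 11.7 to 17.4 in 57-4 anthers against 5.64 to 9.20 in Pima S-1 anthers, and from 14.5 to 21.1 in 57-4 ovules against 4.18 to 11.8 in Pima S-1 ovules. All 9 hybridization controls, which are bacterial and phage transcripts added at a set amount, were brighter on the 57-4 array of each tissue, with median log2 ratios of 0.47 and 0.40. If the arrays are scaled on these controls, the split of 253 higher and 431 lower probe sets in anthers becomes 73 and 2037, and that of 656 and 609 in ovules becomes 152 and 1941. The part of these differences in the members' values was not tested beyond that scaling. In the ovule table that accompanies the study, the signals headed by the 2 genotypes are the deposited signals of the other genotype, within 0.05, for all 1414 probe sets held here, including DT468888, DW235285 and AY208992. The sign of the ratio listed beside them matches the deposited labels in 1406. The deposited labels were used, and every ovule ratio of 57-4 to Pima S-1 below changes its sign if they are exchanged.

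Of the tissue markers, 12 probe sets described as fibre or ovule proteins had summed signals of 12858 (57-4) and 12205 (Pima S-1) in anthers, and of 17719 (57-4) and 26450 (Pima S-1) in ovules. One of them, CA992712, gave most of each sum, and without it the sums were 3443.5 and 4694 in anthers and 4164 and 6371.5 in ovules, so that 57-4 was lower in both tissues. For the whole list the median signals were 212 against 319 in anthers and 248 against 365 in ovules. The 4 probe sets described as seed or embryo proteins had medians of 1734 for 57-4 and 1891.5 for Pima S-1 in anthers, and of 2220.3 and 3308 in ovules. By the sum 57-4 was higher in anthers, with 10150 against 8589.5, and lower in ovules, with 11087 against 17322. CA992849, the brightest, had 6652 for 57-4 and 4767 for Pima S-1 in anthers. Without it the anther sums were 3498.5 for 57-4 and 3822 for Pima S-1. The part of these lists in the members' values was not tested. Between 9 and 12 of the fibre or ovule probe sets reached 50 on each array. No description held here names pollen, tapetum or anther, so the anther label was not checked against markers of its own. In whole organs, fewer cells of a type and less RNA per cell cannot be told apart.

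In anthers DT468888 gave a signal of 556 for 57-4 and 159.5 for Pima S-1, and in ovules it gave 954 for 57-4 and 304 for Pima S-1. Both 57-4 signals lay above both Pima S-1 signals, whichever tissue they came from. On the log2 scale the genotype ratio was 1.80 for anthers, a 3.48-fold difference, and 1.65 for ovules, a 3.14-fold difference. In anthers 18 of 15900 measured probe sets had a ratio at least as high, itself included, and in ovules 67 of 14707. No other probe set of the 13428 measured in both tissues reached ratios as high as these in both, where 23 had a 57-4 signal at least 2-fold higher in each. DT468888 sets these cut-offs itself, and the study had called it in both tissues on the same arrays. The ranks are therefore descriptions.

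No replicate spread is available. The disagreement between 2 probe sets of 1 transcript cluster whose names are equal up to the last point was used as a yardstick instead. The SD of the log2 ratio within such pairs was 0.40 in anthers (394 pairs) and 0.56 in ovules (191 pairs). It measures how far probe sets differ on the same arrays, not how far plants or hybridizations differ. Some pairs differ in the letter of their names that marks the strand (A or S), so they need not measure the same strand. The SD is therefore not purely a repeat error of 1 transcript. Both ratios of DT468888, whose own name has the letter A, exceeded this SD.

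DW235285, the other probe set described as DELLA protein GAI, gave 1226 for 57-4 and 1550.5 for Pima S-1 in anthers. In ovules the signals were 823 for 57-4 and 1167 for Pima S-1. The signal was thus lower in 57-4 in each tissue, with log2 ratios of -0.34 in anthers and -0.50 in ovules, both smaller than the yardstick of the tissue. Of all measured probe sets, 21.8% in anthers and 15.0% in ovules had a ratio at or below that of DW235285.

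A further probe set, AY208992, helps to place the contrast. It is absent from the similarity list and so is not a member, but the array's own title gives it as the full-length GAI mRNA of Gossypium hirsutum, upland cotton. Its anther signals were 1549.7 for 57-4 and 2114 for Pima S-1, and its ovule signals were 1186 for 57-4 and 1592.5 for Pima S-1. The log2 ratios were -0.45 and -0.42, on the same side as DW235285 and opposite to DT468888. When each probe set was centred on its own mean over the 4 arrays, the Euclidean distance between the log2 patterns of AY208992 and DW235285 was 0.13, and 41 of 10876 probe sets that reached 50 on all arrays lay closer to DW235285. Between AY208992 and DT468888 the distance was 2.50, and 8696 probe sets lay closer to DT468888. Both patterns come from the same 4 arrays, so the distances are descriptions.

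The description of DT468888 as DELLA-GAI rests on a match to a very small part of the GAI protein in the study's similarity search, a much smaller part than for DW235285. The cluster title of DT468888 names no product. DT468888 is designed for 1 transcript, whereas the probes of DW235285 and AY208992 are shared by several transcripts, so near-identical copies of GAI in this tetraploid species would be summed there. Which gene DT468888 measures was not tested, since no transcript sequence was used here.

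**Figure D1:**
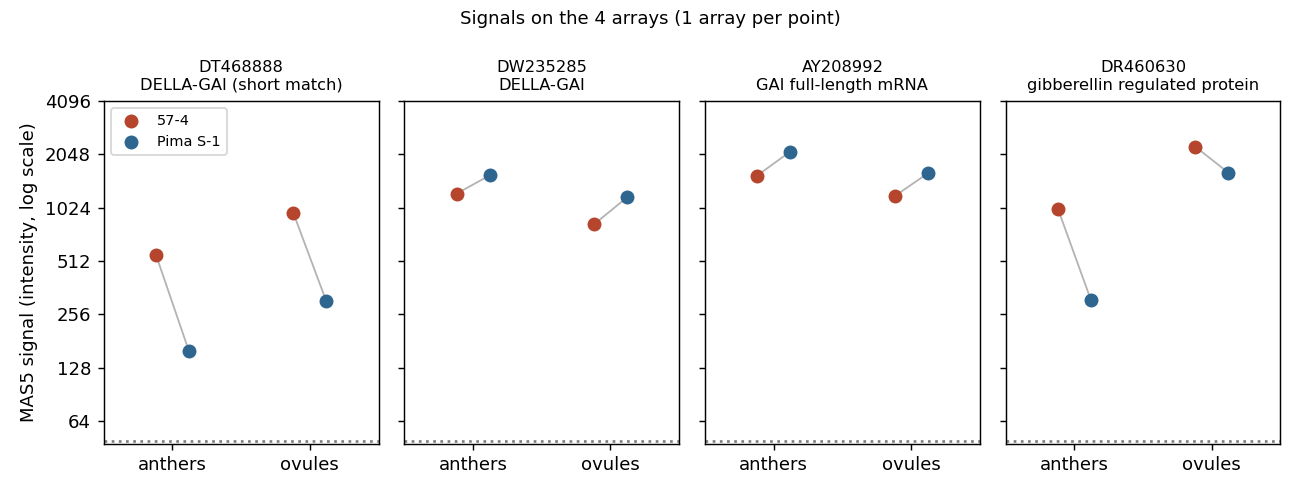
MAS5 signal (y axis, log scale) of DT468888, DW235285, AY208992 and DR460630 in anthers and ovules of 57-4 and Pima S-1, with 1 array per point and the dotted line at the signal of 50. The 57-4 points of DT468888 (556 and 954) lie above its Pima S-1 points (159.5 and 304), and those of DW235285 and AY208992 lie below theirs.

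The difference in log2 ratio between the 2 probe sets described as DELLA-GAI was 2.14 in anthers and 2.16 in ovules. The ratio of 57-4 to Pima S-1 was thus 4.41 times as high for DT468888 as for DW235285 in anthers and 4.46 times in ovules. A factor applied to a whole array leaves this difference as it is. Against AY208992 in place of DW235285 it was 2.25 and 2.08.

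The ratios between tissues differed in sign too. DT468888 was higher in ovules, with log2 ratios of anthers to ovules of -0.78 in 57-4 and -0.93 in Pima S-1, while DW235285 was higher in anthers, with 0.57 and 0.41. AY208992 had 0.39 and 0.41. The yardstick formed in the same way for these tissue ratios was 0.61 in 57-4 and 0.70 in Pima S-1. DT468888 exceeded it in both genotypes, and DW235285 and AY208992 in neither. Scaled on the hybridization controls, DT468888 had -0.60 in 57-4, just under the yardstick, and -0.73 in Pima S-1. The SD of the tissue ratios of all probe sets with both signals at least 50 was 0.79 in 57-4 and 0.91 in Pima S-1. With the ovule columns exchanged DT468888 would have 0.87 in 57-4 and -2.58 in Pima S-1. With the deposited labels all were within 2-fold, whereas of all measured probe sets 7.96% were 2-fold or more above ovules in the anthers of 57-4 and 7.26% as far below, with 12.7% and 8.6% for Pima S-1. With the deposited labels the ratio of 57-4 to Pima S-1 for DT468888 was close in both tissues. The ovule ratio minus the anther ratio was -0.15 on the log2 scale, and 77.3% of probe sets measured in both tissues had a gap at least that large. With 1 array for each condition this likeness was not tested, and with the ovule columns exchanged the ovule ratio would be -1.65. For DW235285 the gap was -0.17.

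**Figure D2:**
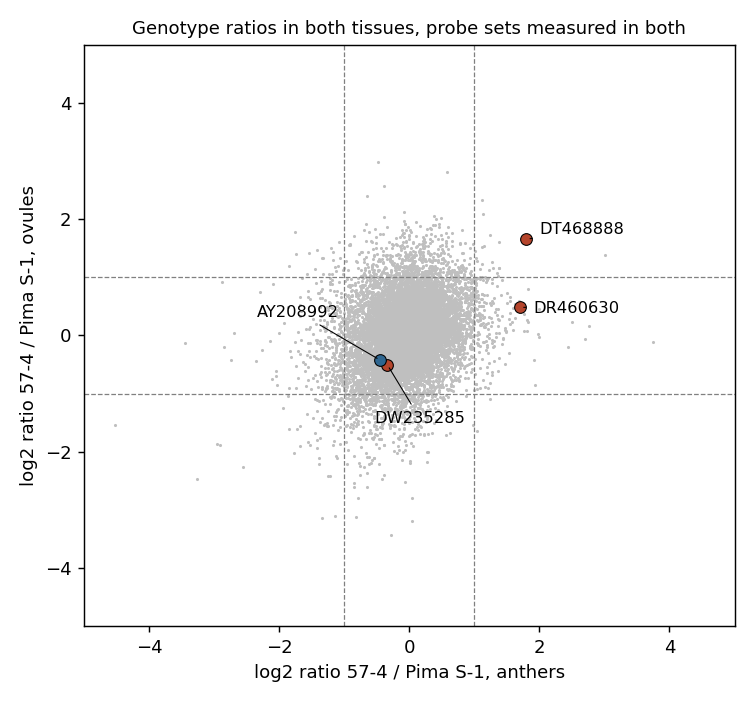
Log2 ratio of 57-4 to Pima S-1 in anthers (x axis) and ovules (y axis) for the 13428 probe sets measured in both tissues (grey), with the 3 members in red, AY208992 in blue and dashed lines at 2-fold. DT468888 stands at 1.80 and 1.65, apart from the cloud, while DW235285 and AY208992 lie next to each other within it.

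DR460630, the gibberellin regulated protein, has a cluster title of weak similarity to a gibberellin-regulated family protein of Arabidopsis. Its anther signals were 1008 for 57-4 and 309.6 for Pima S-1, against ovule signals of 2253 for 57-4 and 1609 for Pima S-1. The lowest of the 4 signals was that of Pima S-1 anthers, and both ovule signals were above both anther signals. The log2 genotype ratio was 1.70 for anthers, a 3.26-fold difference, and 0.49 in ovules, which is under the yardstick of 0.56. In anthers 22 of 15900 probe sets had a ratio at least as high, and in ovules 19.6% of 14707.

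The signal of DR460630 was higher in ovules than in anthers by 2.23-fold in 57-4 and by 5.20-fold in Pima S-1. The ovule ratio minus the anther ratio was -1.22 on the log2 scale, and 7.33% of probe sets measured in both tissues had a gap at least as large in either direction. With 1 array for each condition this difference between the tissues was not tested. The probes of DR460630 may cross-hybridize with other transcripts, as its probe set type states. Under scaling to the hybridization controls its ratio was 1.20 in anthers and 0.001 in ovules, the latter depending on how the scaling factor is formed.

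The probe sets whose pattern over the 4 arrays was most like each member were taken from those with a description in the study's list that reached 50 on every array, 831 besides the member. For DT468888 the nearest were CD485682, described as a hypothetical protein (distance 0.87), a kinesin-like calmodulin binding protein (DW500209, 0.92), 12-oxophytodienoate reductase (DT466538, 0.92), an enzyme of jasmonate synthesis, and a stress inducible protein (DW515625, 0.94). All 4 were higher in 57-4 in both tissues, with log2 ratios of 0.66 to 1.11 in anthers and 1.33 to 2.33 in ovules. They were thus not close in the absolute sense, since the anther ratio of DT468888 lay above all of theirs.

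For DR460630 the nearest was MIF2 (DR463516), a mini zinc finger protein, at a distance of 0.40, and no other of the 10876 probe sets was closer. It gave 778 (57-4) and 267 (Pima S-1) in anthers and 2097 (57-4) and 1823 (Pima S-1) in ovules, so that it too was lowest in Pima S-1 anthers. Next came a glutamic acid-rich protein (DT544528, 0.56), a chlorophyll a/b binding protein (CA993199, 0.58) and MYB59 (DW497255, 0.63), a transcription factor.

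For DW235285 the nearest lay far closer, at 0.06 for the transcriptional corepressor LEUNIG (DR462514), 0.08 for a carboxyl-terminal proteinase (DW481371), 0.10 for sphingosine-1-phosphate lyase (DT468408) and 0.11 for a phospholipase-like protein (DV850346). Small genotype ratios are common on these arrays, and the median distance to described probe sets was 0.97 for DW235285 against 2.38 for DT468888 and 2.35 for DR460630.

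Beside the members and AY208992, the descriptions hold 2 further probe sets named for gibberellin signalling. The GAMYB-binding protein (CO122244), a soybean protein named for binding GAMYB, the MYB factor of the hormone response, gave 96.5 for 57-4 and 270.1 for Pima S-1 in anthers. In ovules it gave 139 for 57-4 and 374 for Pima S-1. It was thus at least 2-fold lower in 57-4 in each tissue, with log2 ratios of -1.48 and -1.43. The gibberellic acid receptor (CO077482) was under 50 on both anther arrays, at 5.3 and 9.7, and its ovule signal was 52.6 for 57-4 against 13.2 for Pima S-1, which makes it at least 1.05-fold higher. The receptor's level was therefore hardly measured.

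Over these 6 probe sets, members included, 2 of 5 measured in anthers were at least 2-fold higher and 1 lower, with a median log2 ratio of -0.34, and 1 of 6 in ovules was higher and 1 lower, with a median of -0.18. The median over all measured probe sets was 0.002 in anthers and 0.06 in ovules, and over all described ones it was -0.29 and -0.58. Among the probe sets held, both directions occurred in each tissue. The study had called 3 of the 6 in anthers and 5 in ovules on these arrays.

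The GRAS family, to which DELLA proteins belong, was described in 8 other probe sets. A probe set described as SCARECROW (CO085934), which in Arabidopsis regulates root patterning, had an anther signal of 302 for 57-4 against 619 for Pima S-1 and an ovule signal of 92.5 against 167, with log2 ratios of -1.03 and -0.86. A GRAS domain protein (DW512507) had 178 against 88.3 in anthers and 148 against 54.1 in ovules, with ratios of 1.01 and 1.45. It was the only one of these 8 to be at least 2-fold higher in both tissues.

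The probe set DN758298, described as GRAS4 and as SCARECROW-like protein 1, had ratios of 0.79 in both tissues and was 6.35-fold higher in ovules than in anthers in 57-4 and 6.37-fold in Pima S-1. Another described as GRAS4 (DR456375) had 0.05 in anthers and -1.10 in ovules. Scarecrow-like 5 (DN758737) was at least 2.70-fold higher in 57-4 ovules, with 134.9 against 33.5, and had a ratio of 0.09 in anthers. SCARECROW-like protein 1 (DT463702) gave 92.6 for 57-4 and 2.5 for Pima S-1 in ovules, at least 1.85-fold higher, against anther signals of 38.5 and 52.3. Scarecrow-like 8 (DT573359) and a probe set titled as SCARECROW regulator-like (DT467107) were within 2-fold, at -0.23 and -0.04 in anthers and -0.40 and -0.42 in ovules. Both calls of DW512507 rest on dim Pima S-1 signals, and its anther call was lost when signals under 100 were set to 100 and under scaling to the hybridization controls. By count, 1 of these 8 was past 2-fold upward and 1 downward in anthers (median 0.01), and 2 upward and 1 downward in ovules (median 0.19). Of all described probe sets, 3.49% were past 2-fold upward and 12.7% downward in anthers, and 6.17% and 12.2% in ovules. The 8 were on the list because the study had called them in a tissue on these arrays. The median in ovules became -0.40 with signals under 100 set to 100.

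Expansins, which loosen the cell wall, and the enzymes that cut and rejoin xyloglucan act in cell elongation, which gibberellin promotes. In anthers 3 of their 10 probe sets were lower by 2-fold or more in 57-4 and 0 higher, with a median log2 ratio of -0.81, and 8 of 10 had a ratio below 0. The 3 come from 2 transcript clusters, and in each a further probe set had a ratio above 0 in anthers, at 0.72 for the expansin cluster and 0.21 for the xyloglucan enzyme cluster. The further expansin probe set has the other strand letter in its name, and whether it reads the same strand was not tested. In ovules 2 of 9 were lower and 1 higher, with a median of -0.41. Of all measured probe sets, 2.71% were as far lower in anthers and 4.14% in ovules. Among all described ones 12.7% were lower and 3.49% higher in anthers, and 12.2% and 6.17% in ovules. Their medians were -0.29 in anthers and -0.58 in ovules. All 10 had been called by the study in a tissue on these arrays, 6 of them in anthers and 5 in ovules. The counts are therefore not independent of how the list was formed. The expansin CO122608 had an anther signal of 208 for 57-4 against 544 for Pima S-1 and an ovule signal of 131 against 287.5, with ratios of -1.39 and -1.14. CO122609, of the same transcript cluster, had -1.09 and -0.93.

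A xyloglucan endotransglycosylase precursor (DT459646) was lower in 57-4 anthers, at -1.33, and at least 1.12-fold higher in ovules, and a TCH4-like xyloglucan enzyme (CO090980) had -0.96 and -1.22. The endo-xyloglucan transferase DN826143 went the other way, with an ovule signal of 1336 for 57-4 against 368 for Pima S-1 (1.86) and an anther signal of 331 against 219 (0.60). Of the accessions with such a description, 2 expansins could not be matched to a probe set and are left out. The cytosolic alpha-amylase DW234622, whose relatives in cereal grains are classic targets of the hormone, had 413 on both anther arrays and ovule signals of 449.7 for 57-4 and 477 for Pima S-1, with ratios of -0.003 and -0.09.

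**Figure D3:**
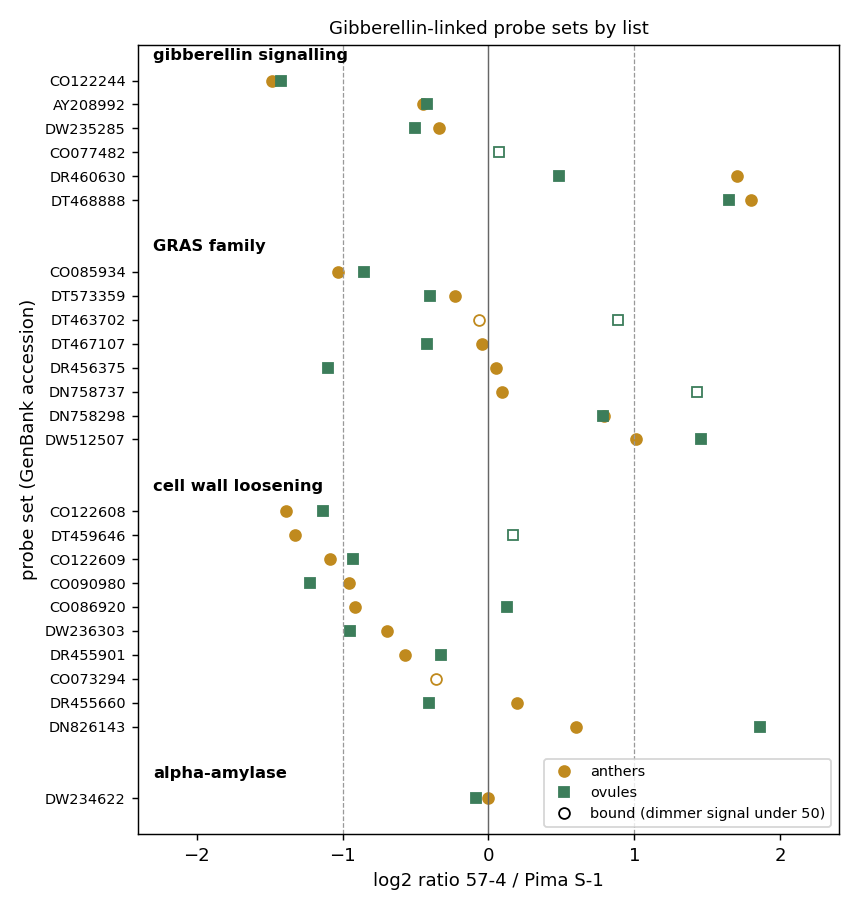
Log2 ratio of 57-4 to Pima S-1 (x axis) in anthers (circles) and ovules (squares) for the probe sets of the 4 gibberellin-linked lists (y axis, GenBank accession), with dashed lines at 2-fold. Open symbols are bounds, and a tissue with both signals under 50 has no symbol. DT468888 has the highest anther ratio (1.80), and only CO122244 and CO122608 lie past -1 in both tissues.

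The values of the members depended on scaling rather than on the floor, since all their signals were over 100. Scaling each array on the median log2 signal of its 9 hybridization controls lowered the ratios of all probe sets by a median of 0.50 in anthers and 0.48 in ovules, where the median of the controls' own ratios was 0.47 and 0.40. DT468888 then had 1.30 in anthers and 1.17 in ovules, still over 2-fold, and DW235285 had -0.84 and -0.99. Over the settings that kept the deposited ovule labels, DT468888 stayed between 1.30 and 1.93 in anthers and between 1.17 and 1.65 in ovules, and was past 2-fold in each tissue under all 3 scalings that could change it, namely median centring, quantile normalization and the hybridization controls. Under the same 3, DR460630 was past 2-fold in all in anthers and in 0 in ovules, and DW235285 in 0 in either.

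**Figure D4:**
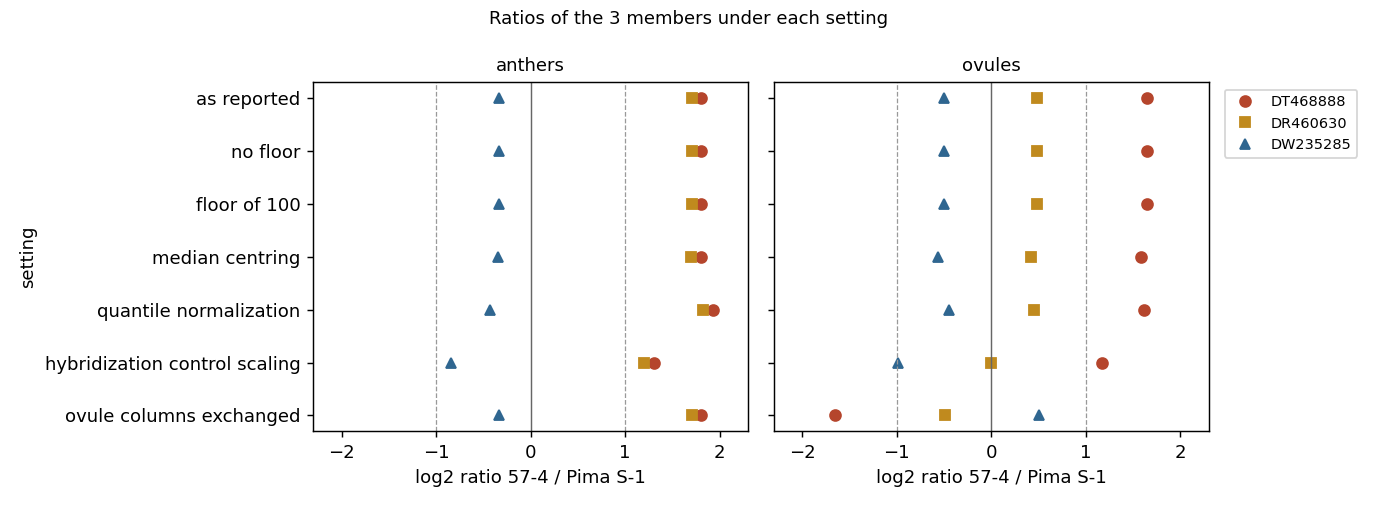
Log2 ratio of 57-4 to Pima S-1 (x axis) of the 3 members in anthers (left) and ovules (right) as reported and under each alternative setting (y axis), with dashed lines at 2-fold. DT468888 is past 2-fold in 57-4 under every setting except in ovules with the ovule columns exchanged, where it has -1.65.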

How the data were processed

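The deposited values are MAS5 signals, intensities on a linear scale that the authors computed per probe set with the Affymetrix GeneChip Operating Software (version not given in the sources used here). RNA of the field replicates had been pooled before hybridization. Each array has the same mean of about 250.1 after the lowest and highest 2% are left out. Arrays have no read depth, and it is their number that limits the precision. Of 24132 probe sets, 103 controls were left out. Signals under 50 were set to 50 and log2 ratios taken within a pair of arrays (Python 3.11.15, pandas 2.3.3). A fold whose dimmer signal was under 50 is only a bound, and none is given with both under 50. No p-value was computed, as there is 1 array per condition. An additive fit of genotype and tissue was not run, since its 1 residual degree of freedom is the difference between the tissues itself. Counting was tested on simulated data, as a check of the code only. The simulated noise was smaller than the spread of the real ratios, and changes were placed only in brighter probe sets. The simulation thus does not show how reliable the 2-fold counts are.

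Product names and accessions came from the study's supplementary lists, and the only use of their fold changes was to compare the sign of the listed ovule log ratios with the deposited labels. The ovule list was held in part, without its strongest decreases. The members and lists were chosen with earlier results of these data known. The genes named are all members, all probe sets of the gibberellin, GRAS and alpha-amylase word lists, those of the cell wall list that were at least 2-fold apart, and the 4 nearest in pattern to each member. Alternatives tried were leaving out the floor, raising it to 100, median centring, quantile normalization, scaling on the hybridization controls, exchanged ovule columns, probe sets for 1 transcript only and a log2 threshold of 1.5.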

Additional observations from a re-analysis of the deposited data

How the results depend on the processing

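No paired analysis was possible because the RNA of the field replicates had been pooled before hybridization. This leaves 1 array for each group and fewer than 2 shared replicate numbers, and for the same reason no replicate could be left out. A value was counted as moved when it changed by more than the yardstick, the SD within pairs of probe sets described above. A count was counted as moved when it changed by over 1.5 times. Of 36 recomputed genotype ratios of the members, 15 were identical by construction, since all signals are over 100 and an exchange of ovule columns leaves anthers as they are. Of the other 21, 15 stayed within that SD, 5 moved and 1 turned its sign past 2-fold. Of 36 tissue ratios 12 were identical by construction, 22 stayed and 2 moved. With scaling on the hybridization controls, DT468888, DR460630 and DW235285 had 1.30, 1.20 and -0.84 in anthers. The median of the gibberellin list was then -0.84 in anthers and -0.91 in ovules, that of the GRAS list -0.43 in anthers, and that of the cell wall list -1.31 and -1.15. Of the GRAS probe sets 0 were then higher in anthers, and 1 was higher and 2 lower in ovules, while 7 cell wall probe sets were lower in anthers and 4 in ovules. Over all probe sets 73 were higher and 2037 lower in anthers, and 152 and 1941 in ovules.

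With the ovule columns exchanged, the ovule ratios were -1.65 for DT468888, -0.49 for DR460630 and 0.50 for DW235285, and the difference between DT468888 and DW235285 was -2.16. The anther to ovule ratio of DT468888 became 0.87 in 57-4 and -2.58 in Pima S-1. In the GRAS list 1 was higher and 2 lower in ovules, and in the cell wall list 2 were higher and 1 lower, with a median of 0.41. With probe sets for 1 transcript only, the gibberellin list held DT468888 alone, with medians of 1.80 and 1.65, 1 higher in anthers and 0 lower in either tissue. The GRAS list then had 0 higher and 0 lower in anthers, 0 higher in ovules and an ovule median of 0.79. The cell wall list had 1 lower in anthers, 0 higher and 0 lower in ovules and an ovule median of 0.17.

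At a log2 threshold of 1.5, 0 of the gibberellin list were lower in either tissue, 0 of the GRAS list passed in either direction in either tissue, and 0 of the cell wall list were lower. Over all probe sets 36 were higher and 76 lower in anthers and 128 and 168 in ovules. With no floor, 2 of the gibberellin list and 3 of the cell wall list were higher in ovules, and over all probe sets 3295 were higher and 2773 lower in anthers and 5443 and 2611 in ovules. With a floor of 100, 0 of the GRAS list were higher in either tissue, their ovule median was -0.40, and over all probe sets 70 were higher and 190 lower in anthers and 283 higher in ovules. Dim signals limit CO077482, CO073294, DT463702 and DN758737, which have only bounds or signals under 50 in a tissue.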

Other observations

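Some transcript clusters of the gibberellin-linked lists have further probe sets that the study's lists held here do not name, and their values were looked at after those of the lists had been seen. Several differ in strand letter (A or S) from the listed probe set, among them those of DN758737, CO122608, CO073294 and DR455901. Whether such pairs read the same strand was not tested. In the cluster of scarecrow-like 5, whose listed probe set DN758737 was dim, a probe set designed for 1 transcript gave 2250 for 57-4 and 1527 for Pima S-1 in anthers, and 1992 for 57-4 and 664.5 for Pima S-1 in ovules, with log2 ratios of 0.56 and 1.58. This bright probe set was therefore at least 2-fold higher in 57-4 ovules, as the dim one was.

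In the cluster of the endo-xyloglucan transferase DN826143, whose ratios were 0.60 and 1.86, an unlisted probe set had 0.41 in anthers and 0.90 in ovules, and CD485682, the described probe set nearest in pattern to DT468888, belongs to the same cluster, with 0.66 and 1.76. In the expansin cluster of CO122608 and CO122609 another probe set went against both in anthers, with 92.1 in 57-4 and 55.8 in Pima S-1 (0.72), and had a bound of 0.27 in ovules, on the higher side, where both others were lower. In the cluster of the xyloglucan endotransglycosylase precursor DT459646, at -1.33 in anthers, the other probe set had 6429 in 57-4 and 5571 in Pima S-1 (0.21). The cluster of CO073294, a dim probe set of the cell wall list with a bound of -0.36 in anthers, has another probe set at 0.71, and that of DR456375, at 0.05 in anthers, has others at -1.06 and -0.13. The sign in anthers thus differed between probe sets of 1 cluster in these last 4 cases. The values of 0.21, 0.05 and -0.13 and the bound of -0.36 are, however, under the anther yardstick of 0.40. In the cluster of DR455901, of the cell wall list, the signs in anthers were the same, at -0.57 and -0.29. They were also the same in that of DT467107, at -0.04 and -0.37.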
